A study of Homo sapiens with 5 samples.

Results

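The genes of glycolysis and pyruvate metabolism were taken as a list of 34 genes, running from the glucose transporters through the enzymes that split glucose to the enzymes and transporters that decide the fate of pyruvate. Of these, 32 were measured, each at its probe set with the highest mean over the arrays, among 11963 genes in all. The monocarboxylate transporters SLC16A1 and SLC16A3, which carry lactate and pyruvate across the plasma membrane, had no probe set named here and were not analysed here. Total RNA of HES2 cells, an established human embryonic stem cell (hESC) line, was profiled on 5 Affymetrix gene expression arrays. All cells carried a lentiviral vector in which the H1 promoter drives a miRNA and a separate promoter drives a red fluorescent reporter, and differed in that miRNA: wt miR-122 on 2 arrays (replicates 1 and 2) and mutant miR-122, with a changed seed sequence, on 3 arrays (replicates 1 to 3). All were grown on foreskin-derived feeder cells and then left to differentiate spontaneously for 2 weeks in KO medium, on fibronectin, without feeders or bFGF. The comparison asks what miR-122, a miRNA abundant in hepatocytes, does to gene expression in differentiating hESC. No untransduced cells were among these arrays, and the cells of an array are a mixture of types, so that fewer cells of a type and less RNA per cell cannot be told apart.

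Glycolysis converts glucose to pyruvate in the cytosol and yields a small amount of ATP without oxygen. Pyruvate is then either reduced to lactate by lactate dehydrogenase or brought into mitochondria, where the pyruvate dehydrogenase complex turns it into acetyl-CoA and pyruvate carboxylase into oxaloacetate. Undifferentiated hESC are known for a high rate of glycolysis, and many glycolytic genes are activated by the hypoxia-inducible factors and by MYC. Most steps have several isozymes with different tissue distributions: among the members, ALDOC and ENO2 are the aldolase and enolase best known from brain, PGAM2 and ENO3 those of muscle. miR-122 is known in liver for repressing ALDOA, the ubiquitous aldolase, which is not on the list and is given with the other glycolytic genes.

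The sequences shown first are those on which the comparison rests. The mature miRNA of the wt vector lies at chr18:58451088-58451109 on the plus strand (RefSeq, GRCh38.p14), and bases 2 to 8, the seed that pairs with targets and that the mutant changes, are in capitals.
hsa-miR-122-5p: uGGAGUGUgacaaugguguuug
The 250 bases before the annotated start are given for the 3 members with the smallest adjusted p, of which the first 2 were higher and the last was lower in wt miR-122-expressing cells. Capitals mark ACGTG on either strand, a core of the element that hypoxia-inducible factors and several other factors recognise. GCGTG, which was searched as well, is not marked. ALDOC lies on the minus strand of chromosome 17, and its window is chr17:28576896-28577145. ENO2 lies on the plus strand, with the window chr12:6914330-6914579. SLC2A1 lies on the minus strand, with the window chr1:42958869-42959118.
ALDOC: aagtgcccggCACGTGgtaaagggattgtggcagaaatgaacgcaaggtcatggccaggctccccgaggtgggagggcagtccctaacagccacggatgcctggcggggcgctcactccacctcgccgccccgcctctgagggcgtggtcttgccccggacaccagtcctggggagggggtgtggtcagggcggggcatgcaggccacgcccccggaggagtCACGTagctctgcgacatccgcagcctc
ENO2: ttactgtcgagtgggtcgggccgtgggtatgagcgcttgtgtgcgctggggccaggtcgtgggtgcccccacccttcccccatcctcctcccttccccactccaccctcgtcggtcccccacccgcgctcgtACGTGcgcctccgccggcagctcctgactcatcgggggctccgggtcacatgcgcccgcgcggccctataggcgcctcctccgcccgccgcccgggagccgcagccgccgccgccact
SLC2A1: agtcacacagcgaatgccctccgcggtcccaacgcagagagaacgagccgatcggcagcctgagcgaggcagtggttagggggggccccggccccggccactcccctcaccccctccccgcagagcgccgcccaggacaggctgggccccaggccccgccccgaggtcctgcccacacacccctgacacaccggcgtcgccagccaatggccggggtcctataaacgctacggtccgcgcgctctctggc

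No member passed the main test, with arrays taken as unpaired, in either direction. In what follows a difference is the mean RMA log2 value of the wt arrays from which the mean of the mutant arrays was subtracted, given with its standard error (SE), and an adjusted p is that of limma, a moderated linear model fitted to all 22215 probe sets, with Benjamini-Hochberg adjustment and a threshold of 0.05. At this threshold 0 of 32 members were called higher in wt, against 0.267% of all genes, and 0 lower, against 0.234%. At an unadjusted p under 0.05, 4 members were higher (12.5%, against 8.84% of all genes): ALDOC, ENO2, PDK3 and GPI. Another 2 were lower (6.25%, against 6.87%): SLC2A1 and PFKP. Both wt arrays lay above all 3 mutant arrays for 10 members (31.2%, against 21.5%) and below all 3 for 2 (6.25%, against 13.4%). These member shares stand on few genes. The replicates came from separate experiments according to the methods. The limma p-values join the spread between these few arrays (3 residual degrees of freedom) with a prior from all probe sets (4.87 degrees).

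**Figure D1:**
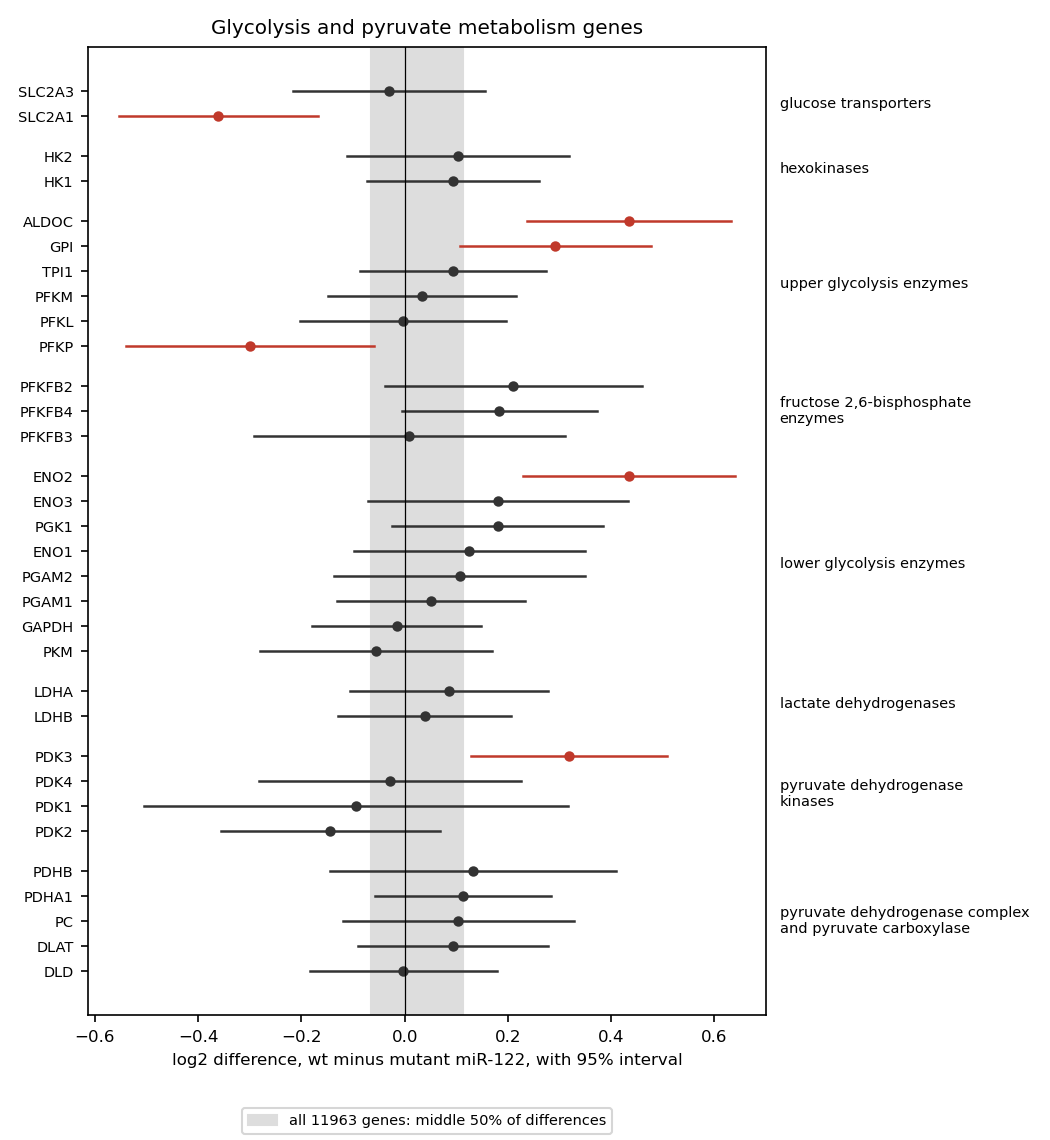
Log2 difference (wt minus mutant miR-122) of the 32 measured members, grouped by role, with the 95% interval of limma as a line. Red marks the 6 members at an unadjusted p under 0.05, and the grey band holds the middle 50% of differences of all 11963 genes. Most members lie in or near the band, with ALDOC and ENO2 at 0.43 on the right and SLC2A1 at -0.36 on the left.

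The intervals at the brightest probe set of each member show the precision of the differences. There the SE lay between 0.0711 and 0.177, and 26 of the 32 intervals at 95% span 0. For 30 members the whole interval lies within 1.5-fold in either direction, the exceptions being ALDOC (0.24 to 0.63) and ENO2 (0.23 to 0.64). These bounds are for array values, and differences at very bright probe sets can be compressed. Among the other probe sets of the members, 1 of SLC2A1 had an interval beyond that bound (-0.81 to -0.26). The mean was higher in wt for 22 members (68.8%, against 58.4% of all genes), and the median difference of the members was 0.09, against 0.03 over all genes. Extreme values gathered on some arrays: wt replicate 1 held the highest value for 14 members (43.8%, against 25.4% of all genes), and mutant replicate 2 the lowest for 11 (34.4%, against 17.8%). Without wt replicate 1 the median was 0.05, with 0.02 over all genes. Leaving out wt replicate 2 gave 0.10, and leaving out mutant replicates 1, 2 and 3 in turn gave 0.07, 0.08 and 0.09. The spread of the member median between replicates was 0.048.

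At the entry of glucose into the cell, the basal glucose transporter SLC2A1 (GLUT1) was lower in wt miR-122-expressing cells. Its RMA log2 values were 9.98, 10.12 and 10.12 on the mutant arrays and 9.76 and 9.67 on the wt arrays. The groups did not overlap, and mutant cells were 1.28-fold higher. The difference was -0.36 (SE 0.08, adjusted p = 0.121), and with each array left out it lay between -0.41 and -0.31. The other probe set of SLC2A1, which is dimmer, had 6.18, 6.24 and 6.53 on mutant and 5.87 and 5.68 on wt arrays, again without overlap and with a difference of -0.54 (SE 0.12, adjusted p = 0.114). SLC2A3 (GLUT3), the high-affinity transporter, gave 13.13, 13.27 and 13.18 on mutant and 13.20 and 13.12 on wt arrays, which overlap (difference -0.03, SE 0.08, adjusted p = 0.897). All 3 of its probe sets had differences just below 0. A further 2 probe sets that match both SLC2A3 and its near-identical copy SLC2A14 had -0.10 and -0.11.

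Hexokinases trap glucose in the cell by phosphorylation. HK2, the isozyme induced by growth signals and hypoxia, had 8.84, 8.75 and 8.80 on mutant and 9.03 and 8.78 on wt arrays, so that only wt replicate 1 stood above the mutant range (difference 0.10, SE 0.09, adjusted p = 0.659). HK1, the widely expressed isozyme, had a difference of 0.09 (SE 0.07, adjusted p = 0.597), small but with groups that did not overlap.

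Of the enzymes of upper glycolysis, which carry glucose 6-phosphate to the 3-carbon sugars, ALDOC and GPI were higher and PFKP lower in wt. ALDOC, the brain-type aldolase, had the smallest adjusted p of all members. Its values were 7.50, 7.49 and 7.38 on mutant and 7.81 and 7.98 on wt arrays. The groups stood clear of each other, and the level was 1.35-fold higher in wt (difference 0.43, SE 0.09, adjusted p = 0.0908). GPI, which turns glucose 6-phosphate into fructose 6-phosphate, gave 10.12, 10.02 and 10.04 on mutant and 10.42 and 10.29 on wt arrays. Both wt values were the highest, a 1.22-fold higher level (difference 0.29, SE 0.08, adjusted p = 0.175).

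The platelet-type phosphofructokinase PFKP had 11.11, 11.12 and 11.16 on mutant arrays, which hardly vary, and 10.99 and 10.66 on wt arrays. Both wt values were below the mutant values but far from each other, and the difference of -0.30 (SE 0.10, adjusted p = 0.254) was -0.46 without wt replicate 1 and -0.13 without wt replicate 2. The liver-type PFKL and the muscle-type PFKM had differences of -0.003 and 0.03, with overlapping groups. TPI1, which interconverts the 3-carbon sugars, had 0.09, also with overlap.

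The PFKFB enzymes set the level of fructose 2,6-bisphosphate, the main activator of phosphofructokinase. PFKFB4 had 5.23, 5.11 and 5.09 on mutant and 5.38 and 5.28 on wt arrays, without overlap (difference 0.18, SE 0.08, adjusted p = 0.361). PFKFB2 had 5.44, 5.60 and 5.25 on mutant and 5.60 and 5.68 on wt arrays, where mutant replicate 2 nearly reached the wt values (difference 0.21, SE 0.11, adjusted p = 0.427). The other probe set of PFKFB2 had a difference of -0.04. PFKFB3, a hypoxia-induced form though not the only one, had a difference of 0.01 (SE 0.13) that was -0.16 without wt replicate 1 and 0.18 without wt replicate 2. The probe sets of PFKFB2 and PFKFB4 are among 5 members under the 40th percentile of brightness, with PGAM2, PDK4 and PC, and a low value on the array does not show that the transcript was detected.

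**Figure D2:**
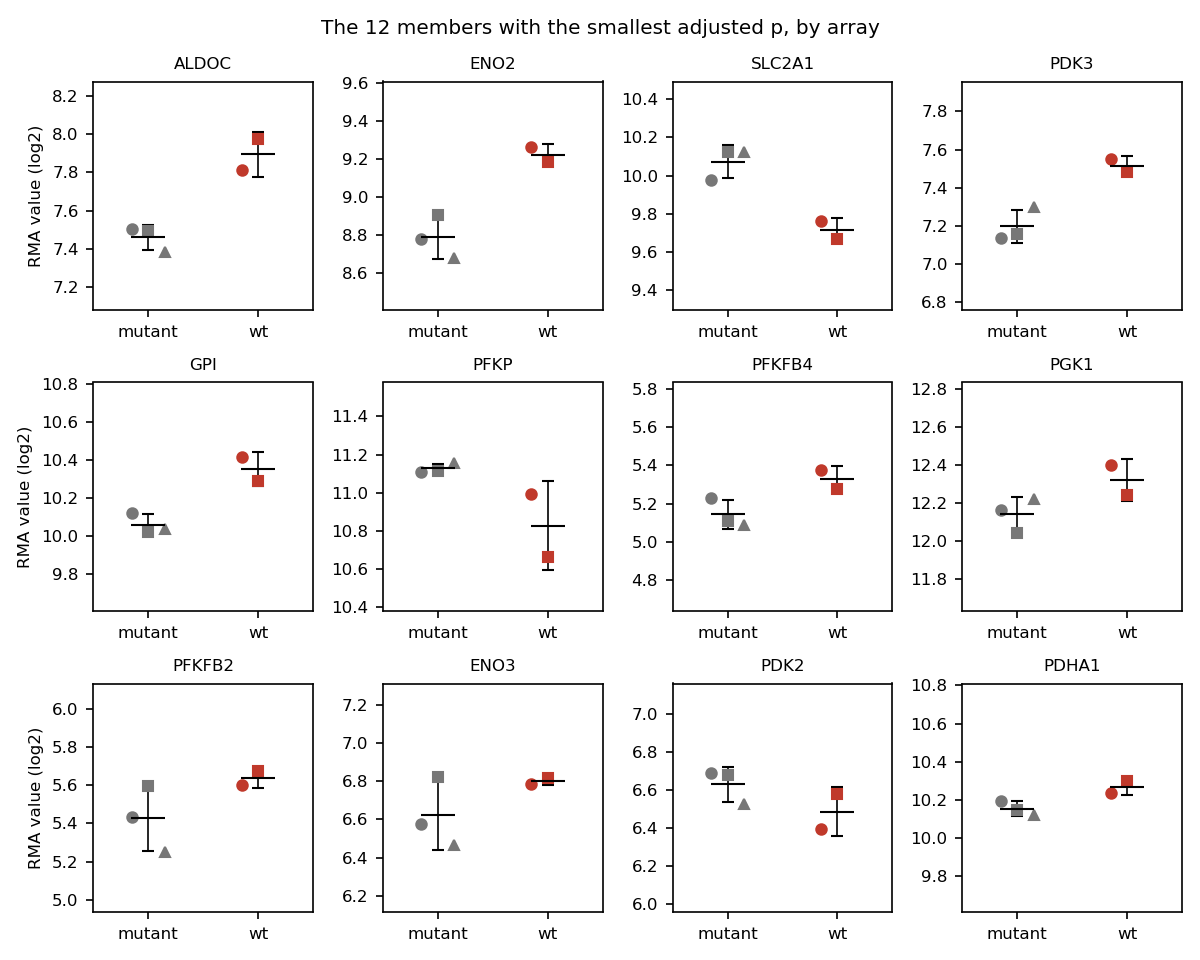
RMA log2 values by array of the 12 members with the smallest adjusted p, with mutant miR-122 arrays in grey and wt in red (circles, squares and triangles are replicates 1, 2 and 3; the bar is the mean and the whisker the SD, n = 3 and 2). Every vertical axis spans the same log2 range. The wt points stand above the mutant points for ALDOC, ENO2, PDK3, GPI, PFKFB4, PGK1, PFKFB2 and PDHA1, below them for SLC2A1 and PFKP, and overlap them for ENO3 and PDK2.

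In lower glycolysis, which yields ATP and pyruvate, ENO2 stood out. This enolase, known as a neuronal marker, had 8.78, 8.90 and 8.68 on mutant and 9.26 and 9.18 on wt arrays. The groups did not overlap, and the level was 1.35-fold higher in wt (difference 0.43, SE 0.09, adjusted p = 0.0976). With each array left out in turn, its difference lay between 0.38 and 0.49. Of 6 neuron markers (TUBB3, STMN2, MAP2, SYT1, SNAP25 and ELAVL3) 0 were called by limma. At an unadjusted p under 0.05, 1 was lower in wt (6.87% of all genes) and 0 higher (8.84%). The lower one was STMN2, whose groups overlap. Both wt arrays lay above all mutant arrays for 1, TUBB3 with a difference of 0.08 (21.5% of all genes), and below for 0 (13.4%). Mean log2 levels of the 6 were 7.33 to 7.40 on mutant and 7.14 to 7.40 on wt arrays. The part of neurons in the ENO2 difference was not tested. ENO3, the muscle enolase, gave 6.58, 6.82 and 6.47 on mutant and 6.79 and 6.82 on wt arrays, which overlap through mutant replicate 2 (difference 0.18, SE 0.11, adjusted p = 0.498). ENO1, the ubiquitous enolase, had a difference of 0.12 (SE 0.10, adjusted p = 0.6) that was -0.0003 without wt replicate 1 and 0.25 without wt replicate 2.

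PGK1, the first ATP-yielding enzyme, had 12.16, 12.05 and 12.22 on mutant and 12.40 and 12.24 on wt arrays. The wt values were the highest by a narrow margin (difference 0.18, SE 0.09, adjusted p = 0.407), and all 4 of its probe sets were higher in wt, by 0.11 to 0.28. GAPDH, which oxidises glyceraldehyde 3-phosphate and often serves as a reference gene, had 13.64, 13.60 and 13.60 on mutant and 13.61 and 13.58 on wt arrays. These overlap (difference -0.02, SE 0.07), and its interval ran from -0.18 to 0.15. GAPDH lies near the top of the value range of these arrays, where differences can be compressed. At or above the 95th percentile of brightness lie 12 members: GAPDH, SLC2A3, LDHA, LDHB, ENO1, PGK1, PGAM1, TPI1, PKM, PDHB, PFKP and HK1. The same limit can apply to each of them. PGAM1 and its muscle isozyme PGAM2 had differences of 0.05 and 0.11, and PKM, the pyruvate kinase of non-hepatic cells, had -0.06, with overlapping groups for each.

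Lactate dehydrogenases interconvert pyruvate and lactate. LDHA gave 12.71, 12.59 and 12.73 on mutant and 12.82 and 12.70 on wt arrays, which overlap (difference 0.09, SE 0.08, adjusted p = 0.689). LDHB had a difference of 0.04 (SE 0.07, adjusted p = 0.851).

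The pyruvate dehydrogenase kinases shut off the pyruvate dehydrogenase complex by phosphorylating its E1 subunit. Their differences had different signs. PDK3 had 7.14, 7.16 and 7.30 on mutant and 7.55 and 7.48 on wt arrays. The groups did not overlap, and the level was 1.25-fold higher in wt (difference 0.32, SE 0.08, adjusted p = 0.155). All 3 probe sets of PDK3 were higher in wt without overlap, by 0.27 to 0.32. PDK2 had 6.69, 6.68 and 6.52 on mutant and 6.39 and 6.58 on wt arrays, with overlap (difference -0.14, SE 0.09, adjusted p = 0.524). PDK1, a hypoxia-induced kinase, varied most among the members: mutant replicate 2 had 6.42 where the other mutant arrays had 6.99 and 7.06, and the wt arrays lay between, at 6.71 and 6.74. PDK4, the kinase of fasting, had a difference of -0.03.

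Of the complex itself, PDHA1 and PDHB encode the E1 subunits, DLAT the E2 and DLD the E3 subunit. PDHB gave 10.84, 10.93 and 11.16 on mutant and 10.98 and 11.23 on wt arrays, so that the groups overlap (difference 0.13, SE 0.12, adjusted p = 0.661). PDHA1 gave 10.19, 10.15 and 10.12 on mutant and 10.24 and 10.30 on wt arrays, without overlap (difference 0.11, SE 0.07, adjusted p = 0.535). Its other, dimmer probe set had -0.04. DLAT had 3 probe sets, all higher in wt by 0.09 to 0.25, while DLD had a difference of -0.003. PC, pyruvate carboxylase, which feeds the citric acid cycle and gluconeogenesis, had 0.10 (SE 0.10, adjusted p = 0.674).

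A gene with several probe sets gives a check within the array. The members have 56 probe sets, of which 0 passed the adjusted threshold of limma, against 0.194% of all 22215 probe sets higher and 0.189% lower in wt. At an unadjusted p under 0.05, 8 were higher (14.3%, against 8.06% of all probe sets) and 3 lower (5.36%, against 6.37%). Of the 16 members with several probe sets, 13 had differences of one sign, 8 higher and 5 lower. The probe sets of PDHA1, PFKFB2 and PFKL differed in sign, and their largest difference was the 0.21 of PFKFB2. Probe sets of one gene share the RNA and are not replicates.

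The balance between related genes was compared as the log2 value of one minus that of the other within each array, over 13 pairs, by a two-sided exact permutation test. Probe levels of different genes are not comparable, so only the change of a ratio between the groups is read. With 3 arrays against 2 the smallest p is 0.1, so that no pair could pass. The ratio of SLC2A1 to SLC2A3 was -3.15, -3.15 and -3.06 on mutant and -3.44 and -3.46 on wt arrays, a shift of -0.33 away from SLC2A1 (exact p = 0.1, adjusted over the pairs 0.433). The ratios of PFKL to PFKP and of PFKM to PFKP were higher on both wt arrays, by 0.30 and 0.33 (exact p = 0.1 and adjusted 0.433 for each). Both share PFKP, and the second was 0.57 without wt replicate 1 and 0.09 without wt replicate 2. The ratio of ENO1 to ENO2 was 3.87, 3.60 and 3.87 on mutant and 3.56 and 3.39 on wt arrays, lower by 0.31 on the wt side without overlap (difference -0.31, exact p = 0.2, adjusted 0.65). The groups overlapped in the 9 other pairs, among them LDHA to LDHB (0.05, exact p = 0.5) and HK1 to HK2 (-0.01, exact p = 0.9). The largest shift of a ratio, PDK1 to PDK3 with -0.41 (exact p = 0.3), overlapped through mutant replicate 2.

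**Figure D3:**
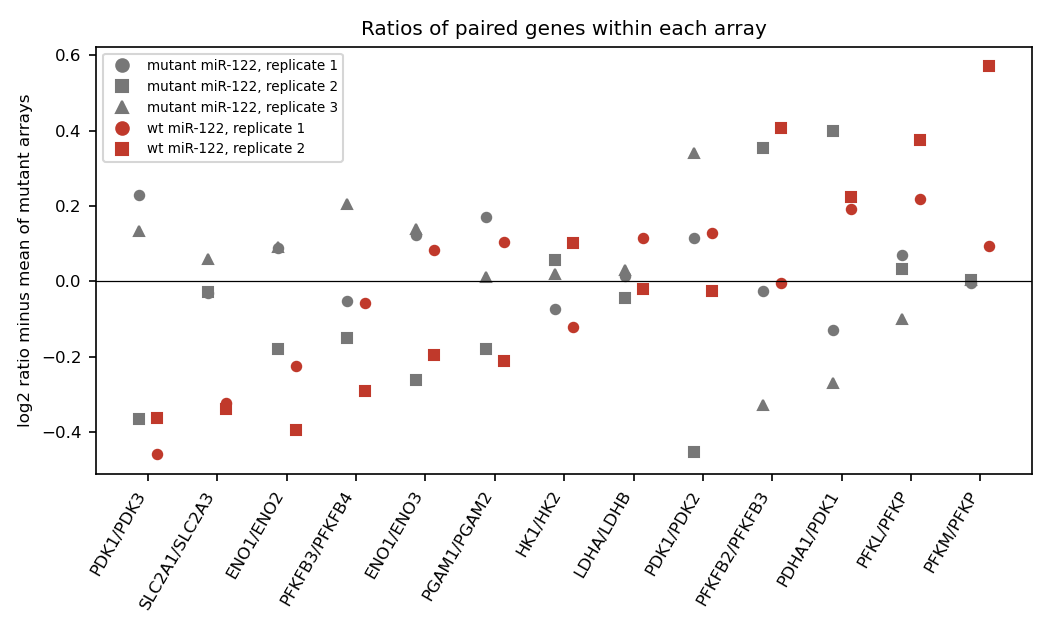
Log2 ratio of paired genes within each array, minus the mean of the mutant arrays, for 13 pairs ordered by the difference between groups (grey mutant, red wt; the marker shape gives the replicate). The wt points stand apart from the mutant points for SLC2A1/SLC2A3, ENO1/ENO2, PFKL/PFKP and PFKM/PFKP and overlap them for the other 9.

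Calls at the adjusted threshold depended on how the variance was estimated. With a prior variance that follows the intensity and is robust to outlying genes, 2 members were called higher (background 0.828% of genes), ENO2 (adjusted p = 0.0397) and ALDOC (adjusted p = 0.046). In the same setting 1 was called lower (background 1.01%), SLC2A1 (adjusted p = 0.046). The differences themselves are the same in both settings. Over the alternatives run, the adjusted p lay between 0.0321 and 0.427 for ALDOC, 0.0397 and 0.386 for ENO2, and 0.046 and 0.497 for SLC2A1.

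The genes around the pathway were read from lists of the same kind. Their counts stand beside 8.84% of all genes higher and 6.87% lower in wt at an unadjusted p under 0.05. At the adjusted threshold the shares of all genes were 0.267% and 0.234%. Of 19 other measured genes of glycolysis, 0 passed at an adjusted or an unadjusted p under 0.05 by limma, with a median difference of 0.06. The smallest adjusted p there belonged to SLC2A4, the insulin-regulated transporter (0.17, adjusted p = 0.363), GCKR, the regulator of glucokinase (0.19, adjusted p = 0.396), and PGK2, the testis form of phosphoglycerate kinase (0.16, adjusted p = 0.397). Their probe sets lie at percentiles 7.6, 25.6 and 19.6 of brightness, and such low values do not show that the transcripts were detected. ALDOA, the aldolase known as a miR-122 target in liver, had a difference of 0.06 (SE 0.07, adjusted p = 0.769), and its 95% interval ran from -0.11 to 0.23. Its probe set lies at percentile 98.99 of brightness, where differences can be compressed, and is of a kind that can match several transcripts.

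Of 15 other genes of pyruvate handling, 0 passed the adjusted test, and 4 were higher and 4 lower at an unadjusted p under 0.05. ME3, a mitochondrial malic enzyme, had 6.14, 6.11 and 6.31 on mutant and 5.78 and 5.51 on wt arrays, with no overlap (difference -0.54, SE 0.11, adjusted p = 0.0892). ME2, another mitochondrial malic enzyme with a brighter probe set, went the other way without overlap (difference 0.27, SE 0.07, adjusted p = 0.168). MPC1, a subunit of the carrier that brings pyruvate into mitochondria, had 7.81, 7.61 and 7.89 on mutant and 7.44 and 7.31 on wt arrays (difference -0.40, SE 0.10, adjusted p = 0.148). LIAS, which makes the lipoyl group that DLAT carries, was higher, with 7.38, 7.31 and 7.27 on mutant and 7.64 and 7.59 on wt arrays (difference 0.30, SE 0.08, adjusted p = 0.148). The median of this list was -0.02, with differences from -0.54 to 0.41, a wider spread than among the members.

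The connected pathways held 0 adjusted calls by limma in either direction. In the pentose phosphate pathway, which branches from glucose 6-phosphate, 3 of 9 genes were higher at an unadjusted p under 0.05 and 0 lower: TKT, a transketolase (0.36, adjusted p = 0.107), and PRPS2 and PRPS1, which make the precursor of nucleotides (0.28, adjusted p = 0.209, and 0.21, adjusted p = 0.277). In the citric acid cycle 2 of 17 were higher and 0 lower, SUCLA2, a succinyl-CoA ligase subunit (0.33, adjusted p = 0.134), and SDHD, a subunit of succinate dehydrogenase (0.20, adjusted p = 0.293). IDH1, the cytosolic isocitrate dehydrogenase, came next (0.19, adjusted p = 0.381). The medians were 0.10 and 0.09, close to that of the members.

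Among 13 measured regulators of glycolytic genes, 1 passed. EPAS1 (HIF-2alpha), a hypoxia-inducible factor, had 10.27, 10.44 and 10.24 on mutant and 9.50 and 9.45 on wt arrays and fell by 0.84 on the log2 scale in wt (difference -0.84, SE 0.09, adjusted p = 0.0293). HIF1A had a difference of -0.10 (SE 0.08, adjusted p = 0.646) and MYC one of 0.10 (SE 0.15, adjusted p = 0.801). MYCN, a MYC relative, had 9.04, 9.06 and 9.16 on mutant and 9.73 and 9.53 on wt arrays (difference 0.54, SE 0.09, adjusted p = 0.0588), and LIN28A, an RNA-binding protein of stem cells, had 0.27 (adjusted p = 0.197). Of 20 hypoxia-inducible genes outside glycolysis, 0 passed the adjusted test and 1 was higher and 1 lower at an unadjusted p under 0.05, with a median of 0.02. These were BNIP3, a mitophagy receptor (0.32, adjusted p = 0.198), and STC2, a secreted glycoprotein (-0.41, adjusted p = 0.19), followed by P4HA2, a collagen prolyl hydroxylase (-0.22, adjusted p = 0.358).

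The promoter windows (250 bases before to 50 after the start) were searched for ACGTG and for GCGTG, on both strands. Windows were given for 31 of the 34 listed members, 61 in all since some genes have several starts. ACGTG occurred in 20 of the 61 (32.8%), against 21.4% of all 35116 windows and 23.7% of the 14058 windows of genes on the array. GCGTG occurred in 27 of 61 (44.3%), against 36.5% and 44.6%. Base composition was not matched. By first base of the match, ALDOC held ACGTG at -240 and -239, as the palindrome CACGTG, and at -28, and ENO2 held it at -118, as the capitals in the sequences above show. GPI held it at -162, PDK3 at -61 and PFKP at -139 in 1 of 4 windows, and ACGTG is not in the window of SLC2A1. GCGTG lay at 25 in the SLC2A1 window, at -108 and -45 in that of ALDOC and at -102 in that of PDK3. Another window of PFKP held GCGTG at -61, -19 and -13, and the windows of ENO2 and GPI had none.

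Markers of cell types differed between the groups along with these values. Over all genes, 58.4% had a higher and 41.6% a lower mean in wt. Of all genes 0.267% were called higher and 0.234% lower, and 6.87% were lower at an unadjusted p under 0.05. The hESC markers stood higher in wt for 10 of 10 genes measured, of which 3 were called, with mean log2 levels of 8.22 to 8.41 on mutant and 8.83 to 8.84 on wt arrays. Of 11 fibroblast and mesenchyme markers 9 were lower in wt, 0 passing the adjusted test of limma and 7 being lower at an unadjusted p under 0.05, with 9.52 to 9.83 on mutant and 9.13 to 9.38 on wt arrays. All 7 measured trophoblast markers were lower in wt and 1 was called, with 7.80 to 8.14 on mutant and 7.30 to 7.52 on wt arrays. Levels of the 6 skeletal muscle markers (5.12 to 5.21 and 5.13 to 5.21) and of the 5 hepatocyte markers (6.04 to 7.13 and 6.16 to 7.01) overlapped. The part of the cell types in the differences of ALDOC, ENO2, GPI, PDK3, PFKP and SLC2A1 was not tested.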

How the data were processed

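RNA of 5 cultures was hybridised to Affymetrix gene expression arrays. The deposited values are log2 expression values that the authors obtained by RMA, a method with background correction, quantile normalization and a summary per probe set, and they were used unchanged. For arrays no read depth exists, so the number of arrays sets the precision (median SE 0.088). Array medians ran from 6.32 to 6.36, and arrays of a group correlated at 0.9967 or more, without being identical. The table has 22277 probe sets; after removal of 62 controls, limma 3.58.1 (lmFit and eBayes, R 4.3.3) was run on 22215 with a group term alone. GEO's platform annotation named the probe sets, with 19052 symbols updated through Entrez IDs: 1 gene for 19064, several for 1043 and none here for 2108. The brightest probe set represents a gene. In 20 simulated sets of 2 against 3 arrays, with 200 of 22215 probe sets changed, 96.6% of 2-fold and 65.8% of 1.5-fold changes were recovered, and false calls made up 4.73% of all calls. The simulated variances came from the prior that limma fitted, with independent noise, so these rates hold only where that model does. Changes smaller than 1.5-fold were not simulated.

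The members and lists were chosen with earlier results of these data known. Given with every array are the 12 members with the smallest adjusted p and the member with the largest difference of each role. Of the other lists up to 3 genes with the smallest adjusted p are named, some with every array and the rest by their difference. SLC2A3, GAPDH, PDK1, ALDOA, HIF1A, MYC and ME2 were added after their values were seen. No test of a list was made. As alternatives, the following were tried: Student's test as in the methods, a robust prior with an intensity trend, a filter on dim probe sets, leaving out probe sets that can match several transcripts, the mean of a gene's probe sets, a replicate block, centring of arrays, and leaving out each array. Promoters and the miRNA are from RefSeq (GRCh38.p14). Plots used Python 3.11.15 with matplotlib 3.10.9. Scanner files, miRNA arrays and qRT-PCR were not used here.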

Additional observations from a re-analysis of the deposited data

How the results depend on the processing

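With each array left out, 0 members passed the adjusted threshold in either direction (limma). At an unadjusted p under 0.05, 3 to 6 were higher and 1 to 3 lower (705 to 1058 and 431 to 827 of all 11963 genes). GPI was lost without wt replicate 1 and PFKP without wt replicate 2. Groups that do not overlap numbered 12 to 18 higher and 2 to 5 lower (3262 to 4303 and 2122 to 3234 of all genes), since fewer arrays overlap less often, and the median of the members lay between 0.05 and 0.10. With an intensity trend and a robust prior 2 members were called higher and 1 lower. The replicate numbers are shared by the groups, and deviations of same-numbered arrays correlated at 0.147 and 0.123 in 2 pairs. With only 2 wt arrays these values cannot decide whether the numbers mark pairs, and the main fit takes the arrays as unpaired. With a replicate block 3 members were called higher, ALDOC (0.40, adjusted p = 0.0321), ENO2 (0.38, adjusted p = 0.0423) and PDK3 (0.37, adjusted p = 0.0436), and 0 lower, while of all genes 220 were called higher and 312 lower. Mutant replicate 3 has no partner and adds nothing to that fit. The block fit leaves fewer residual degrees of freedom than the main fit, so its p-values rest less on the spread between these arrays. The methods' t-test gave 5 members higher and 1 lower unadjusted (973 and 514 of all genes) and 0 after Benjamini-Hochberg adjustment.

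Some differences, none of them called, changed sign, and the cause was not tested. Without probe sets that can match several transcripts PDHA1 had -0.0428 and PFKFB2 -0.0378. The mean of its probe sets gave PFKL 0.0114, the replicate block gave DLD 0.0200 and PDK1 0.0235, and centring gave DLD 0.00498 and PFKL 0.00467. With each array left out, PKM ran from -0.128 to 0.00401, DLD from -0.0419 to 0.0308, PFKL from -0.091 to 0.0847, PDK4 from -0.104 to 0.0625, SLC2A3 from -0.0695 to 0.00944, PFKFB3 from -0.159 to 0.178, PDK1 from -0.297 to 0.0235, ENO1 from -0.00026 to 0.25, HK2 from -0.0212 to 0.229, PFKM from -0.0403 to 0.106 and PGAM2 from -0.00256 to 0.215. The 6 members at an unadjusted p under 0.05 kept their direction in every alternative run. Their groups do not overlap, so leaving out an array could not reverse their sign. The t-test, the robust prior and the filter on dim probe sets reuse the same differences. Their kept direction is therefore no separate support.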

Other observations

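Glycogen metabolism stores and releases glucose. Of 14 measured genes 0 passed the adjusted test of limma, against 0.267% of all genes higher and 0.234% lower. At an unadjusted p under 0.05, 1 was higher and 1 lower, against 8.84% and 6.87% of all genes. The median difference was 0.02. UGP2, which makes the glucose donor of glycogen, had log2 values of 10.77, 10.78 and 10.86 on mutant and 11.17 and 11.06 on wt arrays (difference 0.31, SE 0.08, adjusted p = 0.148). GYS1, the glycogen synthase outside liver, had 7.63, 7.66 and 7.58 on mutant and 7.41 and 7.35 on wt arrays (difference -0.25, SE 0.07, adjusted p = 0.199). PYGL, the liver glycogen phosphorylase, had a difference of 0.20 (adjusted p = 0.35). Groups did not overlap for these 3 genes.

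Gluconeogenesis, the liver pathway that makes glucose from pyruvate, had 7 measured genes. Of these 0 passed the adjusted test, against 0.267% of all genes higher and 0.234% lower. At an unadjusted p under 0.05, 1 was higher and 0 lower, against 8.84% and 6.87% of all genes. The higher one was SLC37A4, the glucose 6-phosphate carrier of the endoplasmic reticulum (0.19, SE 0.07, adjusted p = 0.302). FBP1, the liver fructose bisphosphatase, had 5.51, 5.52 and 5.55 on mutant and 5.61 and 5.89 on wt arrays (difference 0.22, adjusted p = 0.346), and FBP2, its muscle form, had 0.18 (adjusted p = 0.436).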
